A study of Rattus norvegicus with 6 samples.

Results

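The genes described here encode iron and 2-oxoglutarate dependent dioxygenases, enzymes that hold an iron atom in their active site. They were chosen by name: 41 genes were listed, probes were taken where the gene symbol in the deposited series table equalled the name, and for a gene with several probes the one with the highest mean over the arrays was used. Of the 41 genes, 39 had a probe, out of 19956 genes with a symbol on the array; no probe carried the symbols Asph or Kdm4c. The genes were 4 hypoxia-inducible factor (HIF) hydroxylases, 7 collagen hydroxylases, 5 other protein hydroxylases, 12 histone demethylases, 8 nucleic acid dioxygenases and 3 enzymes of lipid and carnitine metabolism.

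RNA was measured on 6 one-colour Agilent rat arrays on 1 slide. Cultures of FAO, a line of rat hepatoma (liver tumour) cells, were either left without deferoxamine (distilled water, 0 µM) or exposed to 100 µM of this iron chelator for 24 h. RNA of 3 cultures was pooled for each array. Wistar rats, which the labels call mice in places, received the AIN-93G diet with iron or the same diet lacking iron for 4 weeks, and RNA of 6 animals was pooled for each array of liver or kidney; the labels give neither age nor sex. Each group is therefore 1 array, the spread between animals or cultures was averaged away before labelling, and no test between conditions was possible. Bulk tissue RNA holds every cell type of the organ, so fewer cells of a type and less RNA per cell cannot be told apart.

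Each of these enzymes uses molecular oxygen and 2-oxoglutarate, with iron in its reduced form, to oxidise a protein, a nucleic acid or a small molecule, and releases succinate and carbon dioxide. In well oxygenated, iron-replete cells, HIF prolyl hydroxylases mark the HIF alpha subunits for destruction through the von Hippel-Lindau protein; when iron or oxygen is short, HIF accumulates and activates target genes, some of which encode members of the same enzyme family. Liver and kidney also use the family for collagen maturation, for carnitine synthesis and for the removal of methyl groups from histones, DNA and RNA.

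Values are signals after background subtraction, with every array scaled to a common level taken from the 9091 probes that were well above background on every array (their 75th percentile). Levels are compared between arrays for the same probe and never between probes. A difference is the treated array's log2 signal less the control array's, and the figure after ± is a standard error computed from how far repeated spots of similar brightness scattered, so that it holds technical noise alone. Where 1 of the paired arrays was not well above background, the difference is a bound, written as at least N-fold: the brighter array was set against the dimmest signal detected anywhere on the other array, or against the probe's reading there if that was higher. A gene was called higher or lower when its difference or bound reached 2-fold (log2 1), a size rule with no p-value.

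Of the 39 genes with a probe, 20 were well above background on all 6 arrays, 14 on 1 to 5 arrays and 5 on none (P4ha3, P4htm, Ogfod1, Kdm4d and Tet1). The share of all probes well above background was 37.7% to 48.8% per array, and no spot was saturated. Repeated spots disagreed in patches, which were scored as 264 square blocks, each 16 spots wide, per array: control liver had 40 noisy ones, control kidney 25, treated FAO cells 24 and the other 3 arrays 4 to 12. The tissue labels were borne out by marker genes: 6 of 6 hepatocyte markers were well above background on both liver arrays and 1 of 6 (Tf) on both kidney arrays, while 5 of 5 kidney tubule and glomerulus markers were well above background in kidney and none in liver or FAO cells. Both FAO arrays had 6 of 6 hepatocyte markers well above background.

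The promoters of the genes that were called higher in more than 1 comparison are shown because HIF binds DNA at a short core sequence, and these windows let the letters be read beside the values. The 250 bases upstream of each RefSeq start (assembly GRCr8) were searched on both strands for ACGTG and GCGTG, and matches on the strand shown or its complement are in capitals. Kdm3a has 2 RefSeq starts and so 2 windows. P4ha2, a second catalytic subunit of the same enzyme as P4ha1, is added because its window held 5 matches, the highest number among these genes. The windows lie at chr6:77411016-77411265 (minus strand) for Egln3, chr20:27844796-27845045 (plus strand) for P4ha1, chr10:38743644-38743893 (plus strand) for P4ha2, chr5:163650738-163650987 (minus strand) for Plod1, and chr4:105233371-105233620 and chr4:105233112-105233361 (both minus strand) for Kdm3a.
Egln3 promoter: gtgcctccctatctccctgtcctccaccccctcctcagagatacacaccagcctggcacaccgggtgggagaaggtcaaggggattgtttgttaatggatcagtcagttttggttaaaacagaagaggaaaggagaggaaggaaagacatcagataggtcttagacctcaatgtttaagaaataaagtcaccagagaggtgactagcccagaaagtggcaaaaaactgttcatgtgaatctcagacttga
P4ha1 promoter: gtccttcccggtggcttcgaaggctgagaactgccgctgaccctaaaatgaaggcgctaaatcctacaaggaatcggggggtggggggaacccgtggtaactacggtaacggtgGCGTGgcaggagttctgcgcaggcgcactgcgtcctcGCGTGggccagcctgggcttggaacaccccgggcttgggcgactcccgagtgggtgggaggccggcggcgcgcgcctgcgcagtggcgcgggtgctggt
P4ha2 promoter: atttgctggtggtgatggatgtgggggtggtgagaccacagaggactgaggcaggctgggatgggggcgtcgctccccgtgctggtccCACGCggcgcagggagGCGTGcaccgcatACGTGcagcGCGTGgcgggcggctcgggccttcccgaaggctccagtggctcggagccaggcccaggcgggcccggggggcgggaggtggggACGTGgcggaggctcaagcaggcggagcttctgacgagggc
Plod1 promoter: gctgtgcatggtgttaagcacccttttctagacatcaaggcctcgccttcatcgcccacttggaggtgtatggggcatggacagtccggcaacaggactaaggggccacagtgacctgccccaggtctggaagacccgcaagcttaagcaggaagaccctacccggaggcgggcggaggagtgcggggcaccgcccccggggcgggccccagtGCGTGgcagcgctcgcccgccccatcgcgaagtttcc
Kdm3a promoter, first start: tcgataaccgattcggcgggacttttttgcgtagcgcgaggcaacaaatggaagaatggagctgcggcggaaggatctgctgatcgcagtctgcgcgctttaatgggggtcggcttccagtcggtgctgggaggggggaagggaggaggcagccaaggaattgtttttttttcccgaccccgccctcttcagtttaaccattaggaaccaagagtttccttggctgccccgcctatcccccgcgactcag
Kdm3a promoter, second start: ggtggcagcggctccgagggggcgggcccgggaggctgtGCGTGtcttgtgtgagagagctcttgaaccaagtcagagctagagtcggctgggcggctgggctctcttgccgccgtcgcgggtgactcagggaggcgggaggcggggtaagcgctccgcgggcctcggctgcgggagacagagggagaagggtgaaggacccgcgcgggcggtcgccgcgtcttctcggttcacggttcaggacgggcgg

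P4ha1 had 2 matches, whose first bases lay at positions -136 and -99 from the start, Plod1 had 1 at -37, and the second window of Kdm3a had 1 at -211. The Egln3 window and the first Kdm3a window held 0 matches. Promoter windows were found for 37 of the 39 genes (44 windows), and 22 of the 44 (50%) held ACGTG or GCGTG, against 36.7% of 33469 windows of all genes and 40.8% of 21851 windows of protein-coding genes. ACGTG alone stood in 8 of 44 windows (18.2%), against 16.6% of all windows. A match describes the letters and not a bound site, and a window with none says only that the letters are not in those 250 bases.

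In FAO cells the comparison asks which genes respond to iron chelation, and 4 of the 32 dioxygenase genes with a value were called higher after deferoxamine (12.5%) and 2 were called lower (6.25%). Over all genes of the same comparison, 4.05% were called higher and 6.43% lower. The higher ones were Egln3, P4ha1, Plod1 and Kdm3a, and the lower ones were Egln1 and Fto. Of the 32 values, 30 came from both arrays and 2 were bounds. The call of P4ha1 is a bound, which could only lie on the higher side. The median of the 32 differences was 0.19, beside 0.03 for all genes.

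In liver the comparison asks what an iron-free diet does to the tissue, and 5 of 30 genes with a value were called higher on that diet (16.7%) and 0 lower. Over all genes, 6.52% were called higher and 3.01% lower. The higher genes were Egln3, P4ha1, Plod1, Kdm3a and Jmjd1c, and 3 of these 5 calls are bounds, because the control array was not well above background. A gene near background in control liver enters only through the iron-free array, so the bounds had to lie on the higher side. With normexp background correction Egln3, P4ha1 and Kdm3a in liver were at 0.80, 0.34 and 0.74, under the size rule. The median of the 30 values, with the 8 bounds taken at their bound, was 0.07, beside 0.02 for all genes; over genes measured on both arrays it was -0.07 for 22 dioxygenase genes and -0.06 for all genes. Of the calls over all genes in liver, 68.4% were higher, and 96.5% were when each array was scaled to the median of its own detected probes.

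In kidney 3 of 28 genes with a value were called higher on the iron-free diet (10.7%) and 1 lower (3.57%). Over all genes, 3.11% were called higher and 1.26% lower. P4ha1, Plod1 and Kdm3a were higher and Hif1an was lower. The calls of Kdm3a and Hif1an are bounds from probes with 1 spot. Each was well above background on only 1 of the kidney arrays, which fixed the direction. Over genes measured on both arrays, 2 of 25 dioxygenase genes were called higher and 0 lower, beside 113 and 44 of 8077 genes. The median of the 28 differences was -0.10, beside -0.03 for all genes. Calls over all genes in kidney were higher in 71.1%, in 83.6% with each array scaled to the median of its own detected probes, and in 59.3% when 1 spot above background was enough for a probe. In FAO cells the share was 38.6%, and 52.7% with spots in noisy blocks left out.

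**Figure D1:**
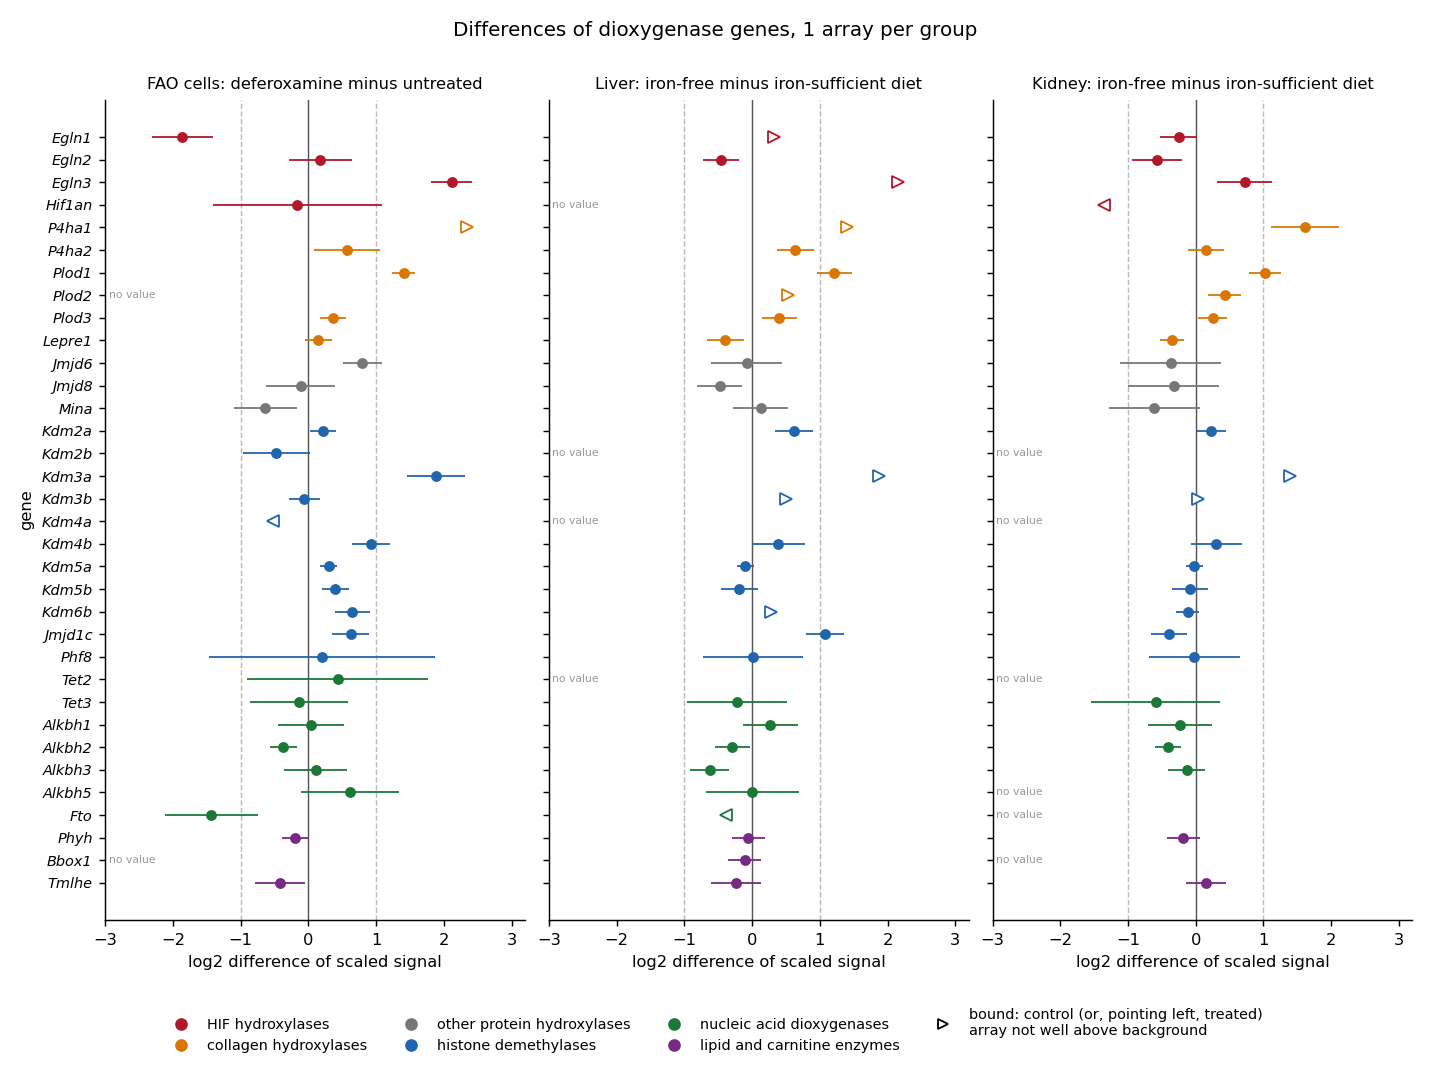
Log2 difference of scaled signal, treated minus control, for each dioxygenase gene (rows) in FAO cells, liver and kidney (panels), 1 array per group; circles are differences with ± the standard error from repeated spots, open triangles are bounds, colours are enzyme classes and dashed lines mark 2-fold. P4ha1, Plod1 and Kdm3a lie past the right dashed line in all 3 panels, Egln3 in FAO cells and liver, and most other genes lie between the lines.

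The plot of differences by gene shows that most dioxygenase genes measured on both arrays of a pair stayed within 2-fold: in FAO cells 25 of 30, in liver 20 of 22 and in kidney 23 of 25. The same held for most of all genes: 9056 of 9724, 8024 of 8531 and 7920 of 8077, so it was not particular to this family. A further 1, 5 and 1 dioxygenase genes had bounds under 2-fold, which leave the size of the difference open. Of the 26 genes with a value in all 3 comparisons, 3 were called higher in every one (11.5%), beside 12 of 7410 genes measured in all 3 (0.162%). The 12 genes were P4ha1, Plod1 and Kdm3a together with Ahsp, Aldoc, Bcl3, Btg2, Eno2, LOC498829, Loxl2, Pfkl and Tfrc. The 3 comparisons share no array. However, the calls of P4ha1 in FAO cells and liver and of Kdm3a in liver and kidney are bounds, which could only lie on the higher side. Of P4ha1, Plod1 and Kdm3a, only Plod1 was measured on both arrays of every pair. With normexp background correction P4ha1 and Kdm3a were under 2-fold in liver and Plod1 in kidney, so each of them lost 1 of its calls.

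Among the HIF hydroxylases, Egln3 was the member called higher. Egln3 encodes a prolyl hydroxylase that acts on HIF alpha and is itself a known HIF target. Its signal was 184 in untreated and 797 in deferoxamine-treated FAO cells, 29.3 (not well above background) in control liver and 199.7 in iron-free liver, and 204 in control and 337 in iron-free kidney. The treated array was the brighter one in each pair, and repeated spots of paired arrays did not overlap. The difference in FAO cells was 4.33-fold (2.11 ± 0.30), in liver it was at least 4.43-fold, and in kidney it was 0.72 ± 0.41, short of the size rule.

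Egln1, the prolyl hydroxylase that does most of the work on HIF alpha in oxygenated cells, had a signal of 484 in untreated FAO cells and 133 with deferoxamine. The call of lower, -1.86 ± 0.45, rests on 1 spot: the 2 deferoxamine spots read 561 and 31.6, the second in a noisy block, while the untreated spots read 459 and 511. Without the noisy block the difference was 0.19, so the direction turned. In control and iron-free kidney Egln1 read 560 and 471 (-0.25 ± 0.27), and in liver 205 (not well above background) and 255, a bound of 0.32. Without noisy blocks the kidney value turned to 0.03. Both control liver spots (172 and 245) lay in noisy blocks, so liver then had no value. The brighter of them exceeded the dimmer iron-free liver spot of 238.

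Egln2, a prolyl hydroxylase of the same group, stayed within 2-fold in every comparison. Its signal was 294 and 332 in FAO cells, untreated first, 851 and 619 in liver and 375 and 251 in kidney, control diet first. The differences were 0.18 ± 0.47, -0.46 ± 0.26 and -0.58 ± 0.37. Both tissues were thus on the lower side of 0 on the iron-free diet, by less than the size rule, and the liver value turned to 0.12 when each array was scaled to the median of its own detected probes. In kidney Egln3 and Egln2, which act on the same substrates, lay on opposite sides of 0 under every setting.

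Hif1an, the asparaginyl hydroxylase that keeps HIF from binding its coactivators, has a probe with 1 spot. The signal was 236 in control kidney and 22.8, not well above background, in iron-free kidney, which gives at least 2.55-fold lower (a bound of -1.35). It read 48.1 and 42.9 in untreated and treated FAO cells (-0.16 ± 1.25) and was not well above background on either liver array. With normexp background correction the kidney value was -0.92, under the size rule.

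**Figure D2:**
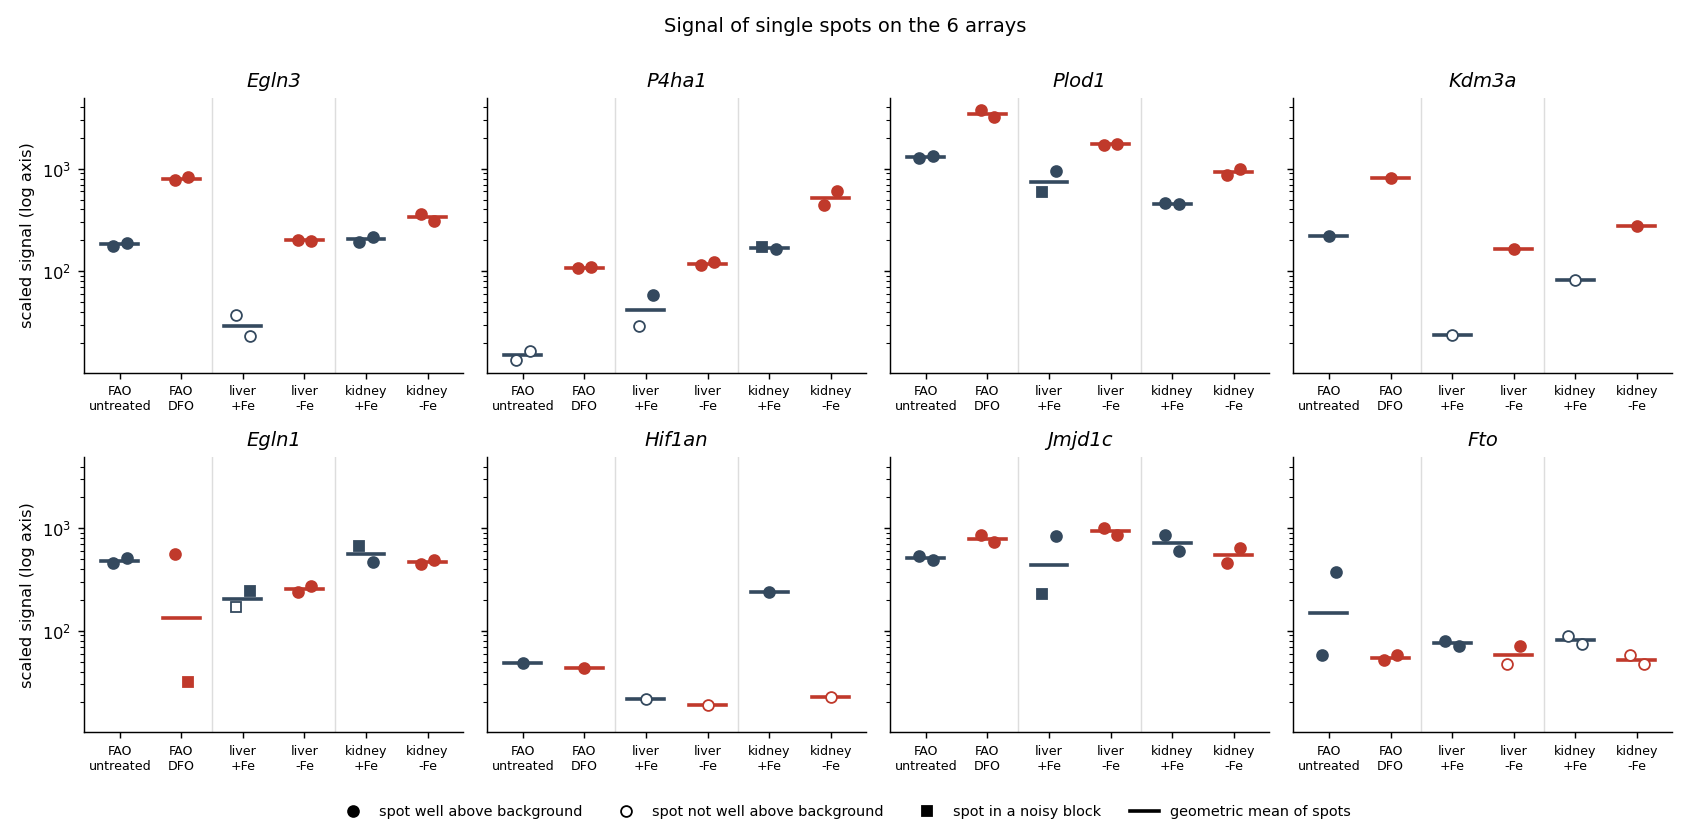
Scaled signal of every repeated spot (log axis) on the 6 arrays for the 8 genes called in at least 1 comparison; dark points are controls, red points are deferoxamine or the iron-free diet (-Fe), open points are not well above background, squares lie in noisy blocks and bars are geometric means. For Egln3, P4ha1, Plod1 and Kdm3a the treated spots lie above the control spots in each pair, while Egln1 with deferoxamine, Jmjd1c in control liver and Fto in untreated cells each have 2 spots far apart.

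The plot of single spots shows which calls are carried by agreeing spots. The calls for Egln3, P4ha1 and Plod1 had treated spots that all lay above the control spots of the same pair. Kdm3a and Hif1an have 1 spot per array and so no spread of their own. The calls for Egln1 and Fto in FAO cells and Jmjd1c in liver rest on pairs of spots that differ from each other.

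Most values of the collagen hydroxylases lay above 0, and 2 of these genes were called higher in every comparison. P4ha1 encodes a catalytic subunit of collagen prolyl 4-hydroxylase, which makes the hydroxyproline that holds the collagen triple helix together. Its signal was 15.1 (not well above background) in untreated and 108 in treated FAO cells, 41.4 (not well above background) in control and 118 in iron-free liver, and 169 in control and 516 in iron-free kidney. The treated array was brighter in all 3 pairs. It was at least 5.08-fold higher in FAO cells and 3.06-fold higher in kidney (1.61 ± 0.51). In liver the bound was at least 2.63-fold, with the control taken at the dimmest signal detected on that array. However, 1 of the 2 control liver spots was well above background at 58.2, while the other read 29.4. The dimmer iron-free spot lay 0.98 above that brighter control spot, just under the size rule.

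Plod1, a lysyl hydroxylase that prepares collagen for cross-linking, was bright on all 6 arrays. Its signal was 1302 and 3449 in FAO cells, 746 and 1729 in liver and 457 and 927 in kidney, control first. The differences were 1.41 ± 0.17 (2.65-fold), 1.21 ± 0.26 (2.32-fold) and 1.02 ± 0.24 (2.03-fold). In control liver the spots read 593, in a noisy block, and 940, and without that spot the liver difference was 0.90, under the size rule. The kidney value stood just past the rule and was 0.80 with normexp background correction.

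P4ha2, the other catalytic subunit printed above, read 198 and 295 in FAO cells, 543 and 845 in liver and 478 and 532 in kidney, with differences of 0.58 ± 0.49, 0.64 ± 0.28 and 0.15 ± 0.26. P4ha2 thus stayed within 2-fold in every comparison. Any relation between promoter matches and these differences was not tested. In FAO cells the deferoxamine spots of P4ha2 read 192 and 453, neither in a noisy block, and the untreated spots 182 and 215. The lowest difference between such spots was -0.16, so the sign in FAO cells leans on the brighter spot. Plod3, a lysyl hydroxylase that also adds sugars to collagen, lay slightly above 0 at 0.36 ± 0.20, 0.40 ± 0.26 and 0.25 ± 0.21. Plod2, the lysyl hydroxylase of collagen telopeptides, was not well above background in FAO cells (4.89 and 4.56), gave a bound of 0.53 in liver (61.5, not well above background, and 88.6) and read 697 and 939 in kidney (0.43 ± 0.24).

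Lepre1 (current symbol P3h1), the collagen prolyl 3-hydroxylase, gave values below 0 in both tissues, though not under every setting. Its signal was 2495 and 2757 in FAO cells, 2626 and 1995 in liver and 1978 and 1550 in kidney, with differences of 0.14 ± 0.20, -0.40 ± 0.28 and -0.35 ± 0.18. Its dimmer probe gave -0.35 in FAO cells, 0.53 in liver and a bound of 0.41 in kidney, so the probes disagree in sign in all 3 comparisons. The control liver spots read 3697, in a noisy block, and 1865, and without noisy blocks the differences were 0.12 in liver and -0.08 in kidney. P4ha3 was not well above background on any array.

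As a class, 5 of 5 measured collagen hydroxylases lay above 0 in FAO cells (2 called), 5 of 6 in liver (2 called) and 5 of 6 in kidney (2 called). The collagen hydroxylase count above 0 in liver was 3 of 5 with normexp background correction and 6 of 6 under 3 other settings. In FAO cells it was 4 of 5 with the mean of all probes. The class medians were 0.58, 0.58 and 0.34. Over 8 alternative settings they ranged from 0.53 to 0.62, from 0.34 to 1.16 and from 0.25 to 0.54. The median in FAO cells is the value of P4ha2, whose deferoxamine spots disagree, and no alternative setting removes either spot. Over genes measured on both arrays the class medians were 0.47 over 4 genes, 0.52 over 4 and 0.34 over 6. In kidney, fibroblast and stellate markers moved alongside: 2 of 5 measured were called higher and 5 of 5 lay above 0 (median 0.99), with a summed signal of 8832 against 3981 and Lum not above background. In liver 0 of 5 were called (median 0.13; 12096 against 10430). In FAO cells Col1a1 was the only marker of the list above background, with Col1a2, Col3a1, Dcn, Lum and Pdgfrb not above it on either array. The part of fibroblast content in the kidney values was not tested.

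Among the proteins these enzymes act on or work with, the collagen chains Col1a2 and Col3a1 were called higher in kidney at 1.27 ± 0.18 and 1.30 ± 0.20, and in liver they were at -0.23 ± 0.28 and 0.36 ± 0.25; both also stand in the fibroblast and stellate list. P4hb, the shared non-catalytic subunit of collagen prolyl 4-hydroxylase, stayed within 2-fold (0.51, 0.01 and 0.33 in FAO cells, liver and kidney). Epas1, an alpha subunit of HIF, was the member of this list called higher in FAO cells, from 48.7 to 163 (1.74 ± 0.76). Of the 13 partners and substrates listed, the number called higher was 1 of 7 measured in FAO cells, then 0 of 11 for liver, then 2 of 10 for kidney, with none called lower.

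The other protein hydroxylases gave no call. Jmjd6, a JmjC enzyme that hydroxylates lysines of splicing factors, read 284 and 492 in FAO cells (0.79 ± 0.29), 133 and 126 in liver (-0.08 ± 0.52) and 180 and 139 in kidney (-0.37 ± 0.74). Mina (current symbol Riox2), a ribosomal protein hydroxylase, read 627 and 403 in FAO cells (-0.64 ± 0.47), 160 and 175 in liver (0.13 ± 0.40) and 197 and 129 in kidney (-0.61 ± 0.67). Jmjd8, a JmjC-domain protein of the endoplasmic reticulum, lay at -0.11, -0.48 and -0.33. The class medians of -0.11, -0.08 and -0.37 rest on 3 genes.

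Among the histone demethylases, Kdm3a stood apart in size. Kdm3a removes methyl groups from histone H3 at a lysine linked to gene silencing and is a known HIF target. Its signal was 218 and 809 in FAO cells, 23.8 (not well above background) and 165 in liver, and 82.4 (not well above background) and 275 in kidney, control first, each from 1 spot. The treated array was brighter in all 3 pairs: 1.89 ± 0.43 (3.70-fold) in FAO cells, at least 3.66-fold in liver and at least 2.62-fold in kidney. Kdm3b, the closest relative of Kdm3a, read 225 and 216 in FAO cells (-0.06 ± 0.23), over 9 and 10 spots, and gave bounds of 0.50 in liver and 0.03 in kidney.

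Jmjd1c, a further relative of Kdm3a, was called higher in liver, with a signal of 441 in control and 931 in iron-free liver (1.08 ± 0.28). The control spots read 229, in a noisy block, and 850, and the iron-free spots 1016 and 852. Without the noisy spot the difference was 0.15, and the gene's other probe gave 0.59. In FAO cells it read 513 and 789 (0.62 ± 0.27) and in kidney 718 and 546 (-0.39 ± 0.27).

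No other histone demethylase was called, though bounds (Kdm3b in both tissues, Kdm6b in liver, Kdm4a in FAO cells) leave the size open and Kdm2b, Kdm4a and Kdm4d had no value in liver or kidney. In FAO cells, Kdm4b, which acts on the same kind of mark as Kdm3a, came closest at 0.93 ± 0.28 (772 and 1467), and it lay at 0.39 ± 0.39 in liver and 0.31 ± 0.38 in kidney. Phf8, a demethylase that binds active promoters, had the smallest average change with the probe used, at 0.20 ± 1.67, 0.01 ± 0.74 and -0.02 ± 0.67, values without a settled sign. Its other probe gave -0.33 in FAO cells and a bound of -0.65 in kidney, and no value in liver. As a class, 8 of 11 lay above 0 in FAO cells (1 called), 7 of 9 in liver (2 called) and 4 of 9 in kidney (1 called), with medians of 0.30, 0.39 and -0.02. Over all genes, 5666 of 10694, 5295 of 10171 and 4026 of 8951 lay above 0, so the kidney count was near that of all genes. The class median in liver was 0.025 with normexp background correction. With each array scaled to the median of its own detected probes, 8 of 9 lay above 0 in kidney and the kidney median was 0.18, so its sign is not settled. The flavin demethylases Kdm1a and Kdm1b, which remove histone methyl groups without iron, gave 2 measured genes per comparison and no call (medians 0.11, -0.23 and -0.36).

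The nucleic acid dioxygenases gave 1 call. Fto, which removes methyl groups from adenosine in RNA, read 148 in untreated and 54.7 in treated FAO cells (-1.44 ± 0.69). The untreated spots read 58.3 and 377, neither in a noisy block, and the treated spots 51.7 and 57.8, so the call rests on the brighter untreated spot. With normexp background correction the difference was -0.85. In liver it read 75.5 and 57.8, the latter not well above background (a bound of -0.39), and in kidney it was not above background.

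Alkbh1, a demethylase of transfer RNA, had the smallest change of this class averaged over the comparisons, at 0.04 ± 0.49, 0.27 ± 0.40 and -0.23 ± 0.48. Alkbh2, which repairs alkylated DNA, lay below 0 in all 3 comparisons, at -0.37 ± 0.20, -0.29 ± 0.26 and -0.41 ± 0.19, with the liver value at 0.29 when each array was scaled to the median of its own detected probes. Alkbh3, a repair enzyme for single-stranded DNA and RNA, lay at 0.11 ± 0.47, -0.63 ± 0.29 and -0.14 ± 0.27. Of the Tet enzymes, which oxidise methylcytosine in DNA, Tet3 was above background on all 6 arrays (-0.14, -0.22 and -0.59), Tet2 only in FAO cells (0.43 ± 1.33) and Tet1 on none. The class medians were 0.04 over 7 genes, -0.26 over 6 and -0.32 over 4, and 4 of 4 genes measured in kidney lay below 0 (3 of 4 under the same alternative scaling). Most of all genes in kidney also lay below 0 (4925 of 8951, median -0.03). The class median in kidney ranged from -0.34 to -0.12 over the alternative settings. In liver the class median ranged from -0.37 to 0.36 and so has no settled sign.

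The enzymes of lipid and carnitine metabolism stayed within 2-fold wherever they had a value. Tmlhe, which starts carnitine synthesis from trimethyllysine, read 1786 and 1334 in FAO cells (-0.42 ± 0.37), 803 and 683 in liver (-0.23 ± 0.37) and 9727 and 10812 in kidney (0.15 ± 0.30), and its other probe gave -0.44, -0.14 and 0.10. Bbox1, which makes carnitine in the last step, read 4614 and 4268 in liver (-0.11 ± 0.25) and was not well above background in kidney or FAO cells. Phyh, the peroxisomal hydroxylase of phytanic acid breakdown, read 2326 and 2026, 4537 and 4364, and 902 and 795, with differences of -0.20 ± 0.20, -0.06 ± 0.25 and -0.18 ± 0.24.

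**Figure D3:**
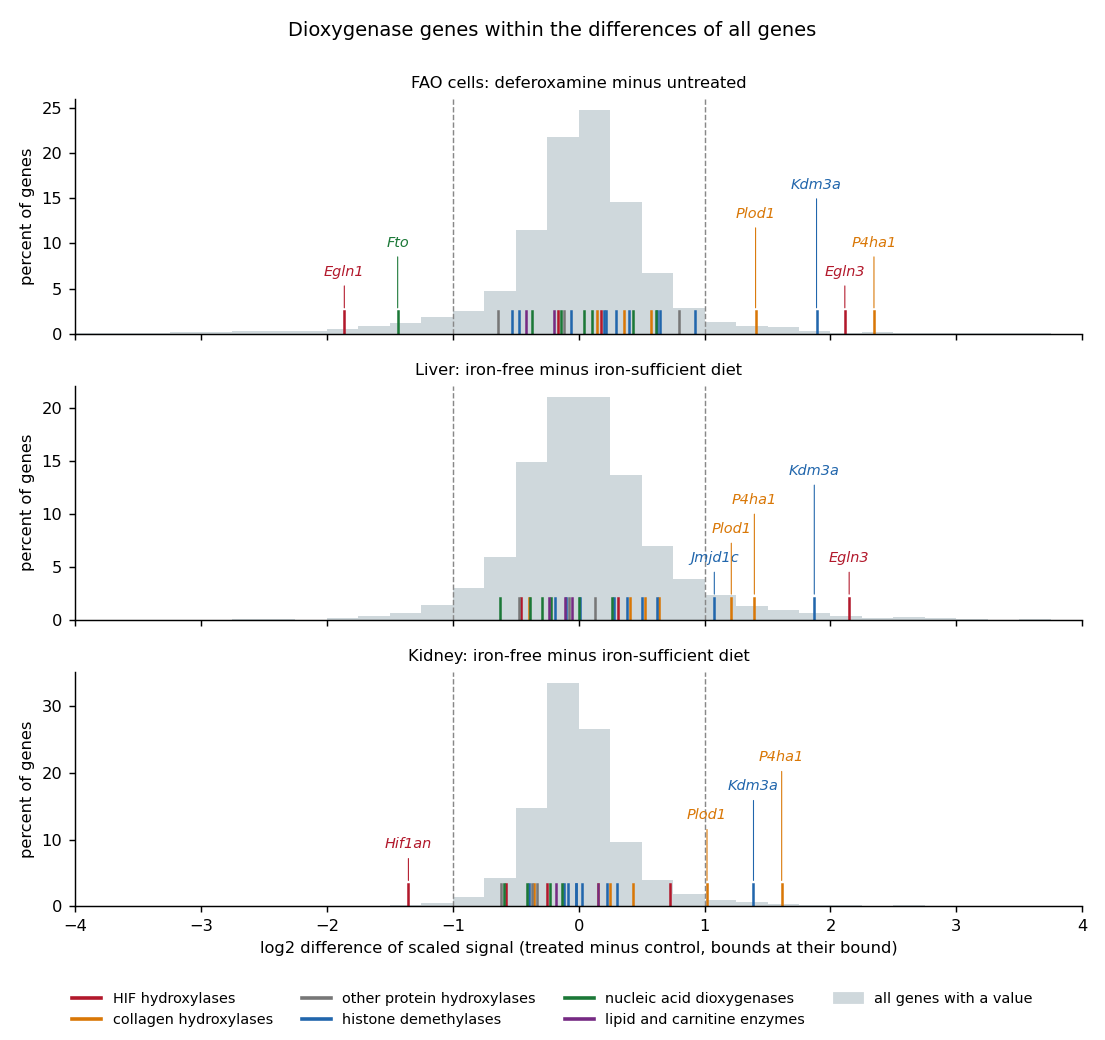
Percent of all genes with a value in each bin of log2 difference (grey bars) in FAO cells, liver and kidney (panels), with the dioxygenase genes as coloured ticks, colour by enzyme class, called genes named and dashed lines at 2-fold. In FAO cells 4 of the 32 ticks lie right of the lines and 2 left, in liver 5 of 30 lie right, and in kidney 3 of 28 lie right and 1 left; the height of the ticks has no meaning.

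The plot of these genes within the differences of all genes shows the classes side by side. With these settings collagen hydroxylases had the highest class median in FAO cells (0.58), liver (0.58) and kidney (0.34). In liver the HIF hydroxylases had the higher median with noisy blocks left out (1.003, then 2 genes, against 0.60) and with normexp background correction (0.40 against 0.34). HIF hydroxylases had medians of 0.01, 0.32 and -0.41, with bounds taken at their bound as in all class medians. The liver value is itself the bound of Egln1, and Egln2, the only one of the 4 measured on both liver arrays, was at -0.46. Nucleic acid dioxygenases and the lipid and carnitine enzymes had medians from -0.32 to 0.04. These medians describe 2 to 11 genes on 1 pair of arrays each, and differences between the classes were not tested.

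Genes of the same pathways outside the family give the setting. Of 10 HIF targets that are not dioxygenases, FAO cells had 9 of 10 called higher, liver 5 of 10 and kidney 2 of 9, with medians of 1.70, 0.96 and 0.48 and none called lower. Eno2, a glycolytic enzyme, was at 3.38 ± 0.37 in FAO cells, at least 3.76-fold higher in liver and at least 2.37-fold higher in kidney. Slc2a1, the glucose transporter of most cells, was at 1.90 ± 0.08, 1.41 ± 0.13 and 0.50 ± 0.08. The targets did not share a single pattern. Ldha was called in FAO cells (1.12) and kidney (1.26) but not in liver (0.21), and Ndrg1 lay at -0.36 in kidney. In liver the calls of Ndrg1, Ankrd37 and Eno2 are bounds, which could only lie on the higher side. Any link between these targets and the dioxygenase genes was not tested.

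Of 25 further dioxygenase symbols outside the 41, 20 had a probe, and none was called higher in any comparison: in FAO cells 0 of 15 measured, in liver 0 of 14 and in kidney 0 of 12. One, Ogfod2, was called lower in FAO cells as a bound (-1.21), and was at -0.31 without noisy blocks. Their medians were -0.06, -0.10 and -0.08. Among 15 genes that supply 2-oxoglutarate or ascorbate, the cosubstrate and the reductant of these enzymes, Idh1, the cytosolic enzyme that makes 2-oxoglutarate from isocitrate, was called lower in FAO cells (5341 and 2575; -1.05 ± 0.20), and 0 of 13 were called in liver and 0 of 12 in kidney. Their medians were -0.37, -0.12 and -0.15. Gulo, which makes the last precursor of ascorbate in rats, lay at 0.14 ± 0.26 in FAO cells and -0.26 ± 0.27 in liver and was not above background in kidney.

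Markers of other cells moved with the liver comparison. Dividing-cell markers were called higher in 4 of 4 cases (median 2.75), with a summed signal of 2513 on the iron-free against 296 on the control array, and erythroid markers in 5 of 6 (median 2.28; 12464 against 2787). In kidney, erythroid markers were called in 1 of 5 (Ahsp; 5386 against 2704) and dividing-cell markers in 0 of 2. In FAO cells 0 of 4 dividing-cell markers were called, and 1 of 2 measured erythroid markers was (199 against 88.6). Hepatocyte markers were called higher in 2 of 6 in liver, macrophage and leukocyte markers in 1 of 4 and endothelial markers in 0 of 4. The part of these cells in the liver values of Egln3, P4ha1, Plod1, Kdm3a and Jmjd1c was not tested.

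**Figure D4:**
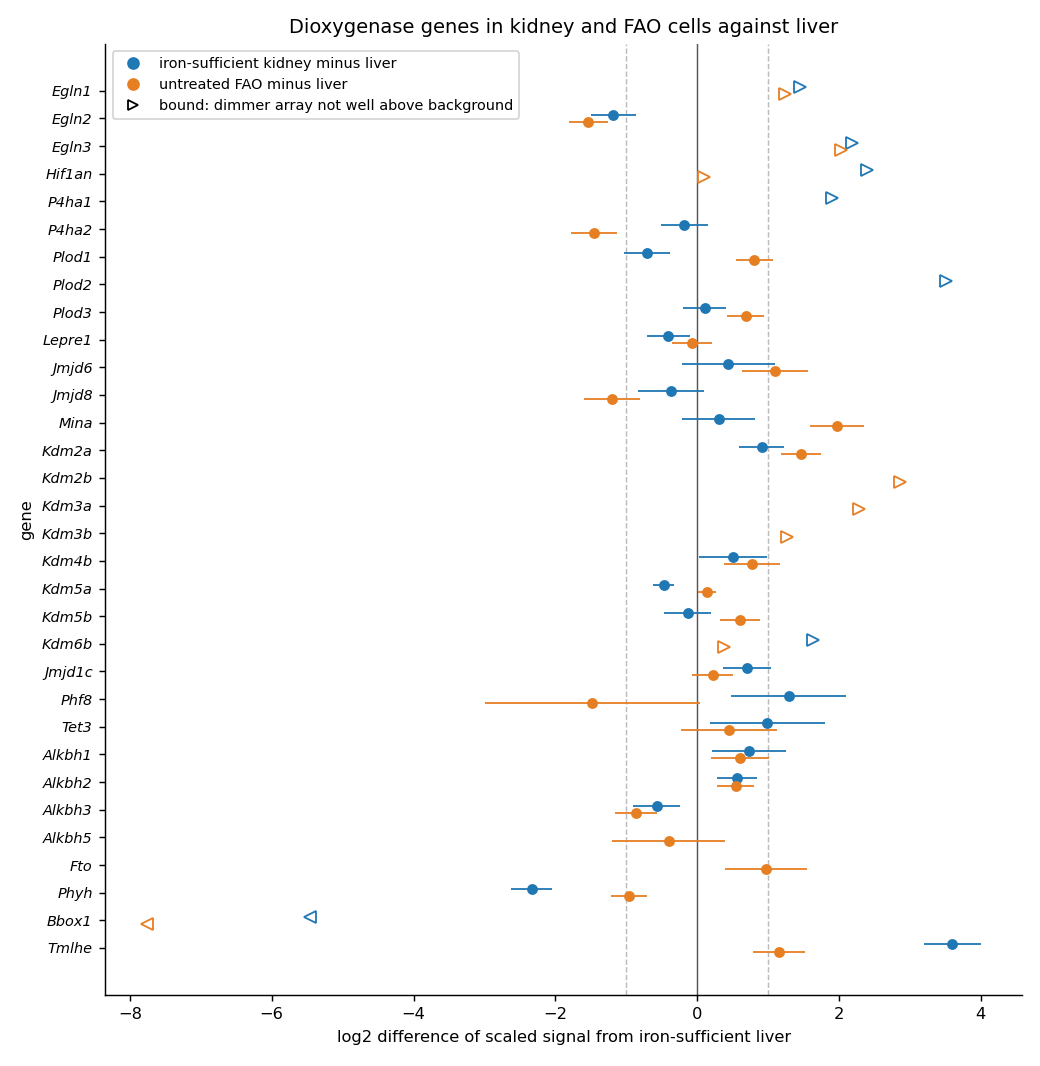
Log2 difference of scaled signal from the iron-sufficient liver array for each dioxygenase gene, in iron-sufficient kidney (blue) and untreated FAO cells (orange); circles carry the standard error from repeated spots and open triangles are bounds pointing toward the larger difference. Bbox1 lies far left in both, Tmlhe lies right in both, and Plod2 lies right in kidney.

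The control arrays show how the family is placed in the untreated organs and cells. Against control liver, 8 of 27 measured genes were called higher in kidney (29.6%) and 3 lower (11.1%), beside 26.6% and 14.8% of all genes, so the shares were near those of all genes. Untreated FAO cells had 9 of 30 called higher than liver (30%) and 5 lower (16.7%), beside 27.7% and 27.8% of all genes. Both comparisons use the same liver array, in which some spots lay in noisy blocks.

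The plot against liver shows the genes of the first and last steps of carnitine synthesis differing in opposite directions between liver and kidney. Control liver had both well above background (Tmlhe 803, Bbox1 4614), while control kidney had Tmlhe (9727) and not Bbox1. The steps between were not examined. Tmlhe was higher in kidney than in liver at 3.60 (12.1-fold) and higher in FAO cells at 1.15, while Bbox1 was at least 43.9-fold lower in kidney. In untreated FAO cells 1 of 2 Bbox1 spots was well above background at 76.6 and the other read 5.03; the bound from their mean is at least 216-fold lower, and the brighter spot alone was 60.2-fold below liver. Phyh was lower in kidney at -2.33 and in FAO cells at -0.96. Plod2 was at least 11.3-fold higher in kidney than in liver and was not above background in FAO cells. These directions held under every one of the 7 alternative settings that gave a value.

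Among the HIF hydroxylases, Egln2 was lower in kidney (-1.18 ± 0.32) and FAO cells (-1.53 ± 0.27) than in liver, and Egln3 was at least 4.53-fold and at least 4.09-fold higher. The values nearest 0 over the alternative settings, kidney first, were -0.90 and -0.96 for Egln2 and 0.93 and 0.33 for Egln3. All of these are under the size rule. Hif1an was at least 5.25-fold higher in control kidney, from 1 spot per array, and its lowest value over the alternative settings was 0.89. This rests on the control kidney spot of 236. Iron-free kidney read 22.8 and control liver 21.4, neither well above background. In order of signal, Egln3 was highest in treated FAO cells, then in iron-free kidney, with control kidney, iron-free liver and untreated FAO cells close together (204, 199.7 and 184, within their spots' spread of 178 to 216) and control liver lowest. Among histone demethylases, Kdm2b and Kdm3a were at least 7.23-fold and at least 4.84-fold higher in FAO cells than in liver, and Phf8 was higher in kidney (1.29 ± 0.81). The lowest values over the alternative settings were 0.997 for Kdm2b, 0.75 for Kdm3a and 0.69 for Phf8, all under the size rule. The untreated FAO spots of Kdm2b read 532 and 200, and Kdm3a has 1 spot per array. In FAO cells the 2 Phf8 probes went opposite ways: the one used read 119 in control liver and 42.7 in untreated FAO cells (-1.48 ± 1.52), and the other 18.1, not well above background, and 66.5.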

How the data were processed

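RNA of 6 samples was measured on 1 one-colour array each; groups were taken from the sample titles. Per the file headers, the authors scanned array design 028279 and obtained the intensity of each spot from Agilent's Feature Extraction software, version 10.7.3.1, with gProcessedSignal being the background-subtracted intensity. The deposited series table gives each probe's intensity on every array and the same on a log2 scale; these deposited log2 values equal log2 intensity minus about the 75th percentile of the array, as checked on the files, and their medians are -4.19 to -3.28. Columns of that table were matched to samples through the file names in the sample descriptions. From the scanner files, log2(gProcessedSignal) was averaged over a probe's spots without outlier spots (680 to 1215 of 58717 on an array). A single spot stood for 13137 probes, 2 spots for 15840 and 10 for 1390. A probe was well above background only if all its spots were. The spot standard error is pooled in 20 bins of signal. A block counted as noisy when its repeated spots departed by more than 2 times the typical amount of the array.

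The genes, the lists and the naming rule were chosen with earlier results of these data known. The rule names every gene called in any comparison, the 4 HIF hydroxylases, and the largest and smallest average change in each other class. It also names genes above background on no array, and up to 2 called genes per further list. Plod2, Plod3, P4ha2, Kdm2b, Kdm3b, Kdm4b, Jmjd6, Alkbh2, Alkbh3, Tet2, Tet3, Phyh, P4hb and Gulo were added after their values were seen. So were Ldha, Ndrg1 and Ankrd37 among the HIF targets. Alternatives changed the scaling, background, spots, detection, probe, source of values and size of a call. Normexp (offset 50) used median signals, because the files held no mean signal. The number of arrays limits the precision. Promoters are from RefSeq; P4htm and Mina had none to show. Python 3.11.15, numpy 2.4.6, pandas 2.3.3, R 4.3.3 and limma 3.58.1 were used, and the steps were tested on simulated data.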

Additional observations from a re-analysis of the deposited data

How the results depend on the processing

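No paired analysis was possible because each group is 1 array of pooled RNA and the labels give no replicate numbers to pair. For the same reason no sample could be left out. Of the calls of single genes, Egln3, P4ha1, Plod1 and Kdm3a in FAO cells and P4ha1 and Kdm3a in kidney were past 2-fold under all 8 alternatives to the scaling, background, spots, detection, probe and source of values. With noisy blocks left out, Egln1 in FAO cells turned to 0.19, the counts were 1 lower in FAO cells (Fto) and 3 higher in liver (Egln3, P4ha1 and Kdm3a), and the HIF hydroxylase median in liver was 1.003 over 2 genes; the alternative removes the discordant spots of Egln1, Plod1 and Jmjd1c. With normexp background correction the counts were 1 lower in FAO cells (Egln1), 1 higher in liver (Plod1) and 0 lower in kidney, Egln3, P4ha1 and Kdm3a in liver were at 0.80, 0.34 and 0.74, and the liver medians were 0.025 for histone demethylases and -0.50 for lipid and carnitine enzymes; the cause was not tested. Scaling each array to the median of its own detected probes moved the median of all genes by 0.57 in liver and 0.20 in kidney, by construction, since more probes were detected on the iron-free arrays. Under it 9 genes were higher in liver, the liver median over all these genes was 0.71, and the class medians in liver were 0.90 for HIF hydroxylases, 1.16 for collagen hydroxylases, 0.50 for other protein hydroxylases, 0.97 for histone demethylases, 0.36 for nucleic acid dioxygenases and 0.47 for lipid and carnitine enzymes. Where any 1 spot above background was enough, 2 genes were lower in kidney (Hif1an and Kdm2b) and the median of other protein hydroxylases in FAO cells was 0.35. At 1.5-fold, 9 genes were higher in FAO cells, 1 was lower in liver (Alkbh3) and 3 were lower in kidney (Hif1an, Mina and Tet3). Signal over background limits the kidney arrays most: the lowest detected scaled signal was 105 and 92.6 there, 45.0 and 37.5 in liver and 21.3 and 20.2 in FAO cells, control first.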

Other observations

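Single spots of some genes departed far from their partners on arrays where the mean was not counted as well above background. Kdm2b, a demethylase of the Polycomb system, had control kidney spots of 486 and 54.9, the second not well above background, and iron-free kidney spots of 46.6 and 45.8, neither above it. P4htm, a transmembrane prolyl hydroxylase, was above background on no array, although 1 of its 2 deferoxamine spots read 40.0 and the other 5.06.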
